A study of Homo sapiens with 12 samples.

Results

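The replacement histone variants are encoded by genes outside the clustered, replication-dependent histone genes, and their mRNAs end in a poly(A) tail. Expression of 9 such genes was followed: H3-3A and H3-3B, H2AZ1 and H2AZ2, MACROH2A1 and MACROH2A2, H1-10, H2AX and H2AJ. They were chosen by symbol from 22379 genes in the deposited table, and all 9 were among the 13811 genes tested. The cells were U2OS, a human osteosarcoma line, edited with Cas9 and a nontargeting guide (NONT), a guide against NUP93 (NUP93-KO, a nuclear pore protein) or a guide against EXOSC5 (EXOSC5-KO, an RNA exosome subunit). Each genotype was given DMSO (untreated) or 1 µM triptolide for 8 h, with 2 libraries per group and 12 in all. Triptolide blocks the XPB helicase of TFIIH and with it initiation by RNA polymerase II. Libraries were made from poly(A)-selected RNA, so histone mRNAs that lack a tail were read only as far as that selection let them through. The knockouts were edited in bulk by transient transfection, and the labels do not say whether replicates were separate cultures, so p-values measure only the spread between these libraries.

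Most histone mRNAs are made in S phase, carry no poly(A) tail and end in a conserved stem-loop. Replacement variants are instead mostly made throughout the cell cycle and can enter chromatin outside replication. H3.3 is deposited by HIRA at active genes and by DAXX with ATRX at repeats and telomeres, and H2A.Z is exchanged by SRCAP and EP400 complexes next to promoters. MacroH2A carries a large macro domain and marks silent chromatin, H2AX is phosphorylated around DNA breaks, H1-10 is a linker histone, and H2AJ is a minor H2A variant.

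Values are spike-in-normalised: estimated counts scaled by ERCC RNAs that had been added per counted cell, so that a value follows mRNA per cell. Depth was about 8.56 M to 11.9 M reads per library (M stands for 1 followed by 6 zeros), 1 read was worth 0.490 to 1.76 on this scale, and the intervals and SEs below cover 2 libraries per group. Replicates of NONT were the least even. Over genes, the first library minus the second had a median of −0.51 on the log2 scale untreated and 0.25 with triptolide, against −0.14 to 0.11 in the other 4 groups. In bulk RNA, fewer cells of a type and less RNA per cell cannot be told apart. NUP93 was at 1395 and 1432 in untreated NUP93-KO against 1753 and 2489 in NONT (adjusted p = 0.926, limma). EXOSC5 was at 215.9 and 148 in untreated EXOSC5-KO against 299 and 481 in NONT (adjusted p = 0.151). Both targeted transcripts were lower with no overlap, and neither passed the threshold on this scale. With triptolide EXOSC5 was at 75.2 and 102 in its own knockout, below the 266 and 208 of NONT. NUP93 with triptolide showed overlap: 801 and 1019 (NUP93-KO), 1007 and 899 (NONT). Setting libraries to a common median of ratios, which removes shifts shared by all genes, called 1 of these 2 genes lower in untreated NUP93-KO. It called both lower in untreated EXOSC5-KO, against 3.64% of all genes, so NUP93 was lower there too. Such mRNA values gave limited information on the editing. Of 6 mesenchymal and bone genes VIM, COL1A1 and SPARC were abundant and COL1A2 was low, at 4.05 to 42.0, the 4 epithelial markers summed to 47.2 to 153 and the 4 blood markers to at most 5.82 in any library.

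The H3.3 genes encode one protein from different nucleotide sequences, which is why reads can be assigned to each. The first 120 coding bases of each gene are shown 5′ to 3′ on the coding strand of GRCh38 (GENCODE release 44), with the bases that differ in capitals. H3-3A (ENSG00000163041) lies at chr1:226061851-226072019 on the plus strand and the stretch at chr1:226064352-226064471. H3-3B (ENSG00000132475) lies at chr17:75776434-75785893 on the minus strand and the stretch at chr17:75779055-75779174.
H3-3A: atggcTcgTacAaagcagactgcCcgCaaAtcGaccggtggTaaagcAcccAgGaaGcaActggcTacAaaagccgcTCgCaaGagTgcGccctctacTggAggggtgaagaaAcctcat
H3-3B: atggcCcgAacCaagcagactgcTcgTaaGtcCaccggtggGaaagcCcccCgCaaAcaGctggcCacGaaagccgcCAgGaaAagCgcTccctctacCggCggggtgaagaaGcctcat
The stretches differ at 24 positions. Over the whole 411-base coding sequences 88 positions differed, 77 of them at the third base of a codon, and the transcripts of the 2 genes shared no 31-base word. Coding identity was 78.6% for the H3.3 pair, 80.4% for the H2A.Z pair and 70.6% for the macroH2A pair. Words of 31 bases shared with other genes were a limit for some members: 76.8% of those of H3-3A also occurred in 22 other annotated genes, none of which codes for protein, and 14.2% of those of H3-3B occurred in H3-5. H3-5 itself was listed at 0 to 4.34. For H2AZ1 the shared part was 22.8%, with 4 H2AZ pseudogenes, for H2AZ2 17.0%, for H2AX 3.97% and for H2AJ 3.22%, and it was 0 for the other members. How the authors' counting divided such reads was not tested.

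The other members lie apart in the genome, on 7 chromosomes of GRCh38, and exons are those of the reference transcript. H2AZ1 (ENSG00000164032, 5 exons) is at chr4:99948086-99950355 and H2AZ2 (ENSG00000105968, 5 exons) at chr7:44826791-44848087, both on the minus strand. MACROH2A1 (ENSG00000113648, 9 exons) is at chr5:135334381-135399914 on the minus strand and MACROH2A2 (ENSG00000099284, 9 exons) at chr10:70052544-70112282 on the plus strand. H1-10 (ENSG00000184897, 1 exon) is at chr3:129314771-129316286 and H2AX (ENSG00000188486, 1 exon) at chr11:119093874-119095465, both on the minus strand, and H2AJ (ENSG00000246705, 1 exon) at chr12:14774405-14778002 on the plus strand.

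Only H2AX carried the histone stem-loop among the members. The histone stem-loop, to which SLBP binds in replication-dependent mRNAs, was searched on the transcript strand as its consensus, and the matched stem and loop are in capitals. The sites of H2BC12 and H1-2, replication-dependent genes detected in these libraries, are shown for comparison.
H2AX: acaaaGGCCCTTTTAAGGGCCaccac
H2BC12: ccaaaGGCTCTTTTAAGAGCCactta
H1-2: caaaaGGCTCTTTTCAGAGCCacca
The H2AX site (chr11:119094893-119094918, minus strand) starts 50 bases after the stop codon, with a further 1024 transcript bases behind it up to the poly(A) end. An H2AX mRNA ending at this site without a tail would be largely missed by poly(A) selection, so H2AX values cover mainly the longer form. Behind the sites of H2BC12 (chr6:27146361-27146386, minus strand) and H1-2 (chr6:26055740-26055764, minus strand) only 5 and 4 annotated bases remain. Such a stem-loop was present in all 67 replication-dependent histone genes and in 0.289% of tested genes with a matched reference transcript (37 of 12787). The 37 include H2AX and the 20 replication-dependent histone genes that were tested. In the 3′ UTR, the letters ATTTA on the transcript strand, counted with overlaps, occurred 7 times in H3-3B and 6 times in H2AZ2, 0 times in H3-3A, H1-10 and H2AJ, and once or 2 times in the rest, against a median of 2 in tested genes. A match is a description of the letters only.

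H2AZ1 was the most abundant member. Per kilobase of transcript, untreated NONT values were 10059 and 13804 for H2AZ1, 3156 and 4570 for H3-3A, 3076 and 4282 for H3-3B, 1693 and 2428 for H2AX, 1331 and 1850 for H1-10, 1099 and 1527 for H2AZ2, 1020 and 1423 for MACROH2A1, 414 and 438 for H2AJ and 120 and 234 for MACROH2A2. Within each of the 2 libraries the order was the one given. Across the libraries the ranges of H3-3A and H3-3B overlapped, as did those of each neighbouring pair from H2AX down to MACROH2A1. H2AZ1 lay above the H3.3 pair, the H3.3 pair above H2AX, MACROH2A1 above H2AJ and H2AJ above MACROH2A2 with no overlap. After triptolide the order in NONT was H2AZ1, H3-3A, H2AZ2, MACROH2A1, H3-3B, H2AX, H1-10, H2AJ and MACROH2A2, so H3-3B moved from the third place to the fifth and H2AX and H1-10 fell behind H2AZ2 and MACROH2A1. Together the 9 genes made up 0.205% to 0.273% of all gene values untreated and 0.169% to 0.230% treated.

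**Figure D1:**
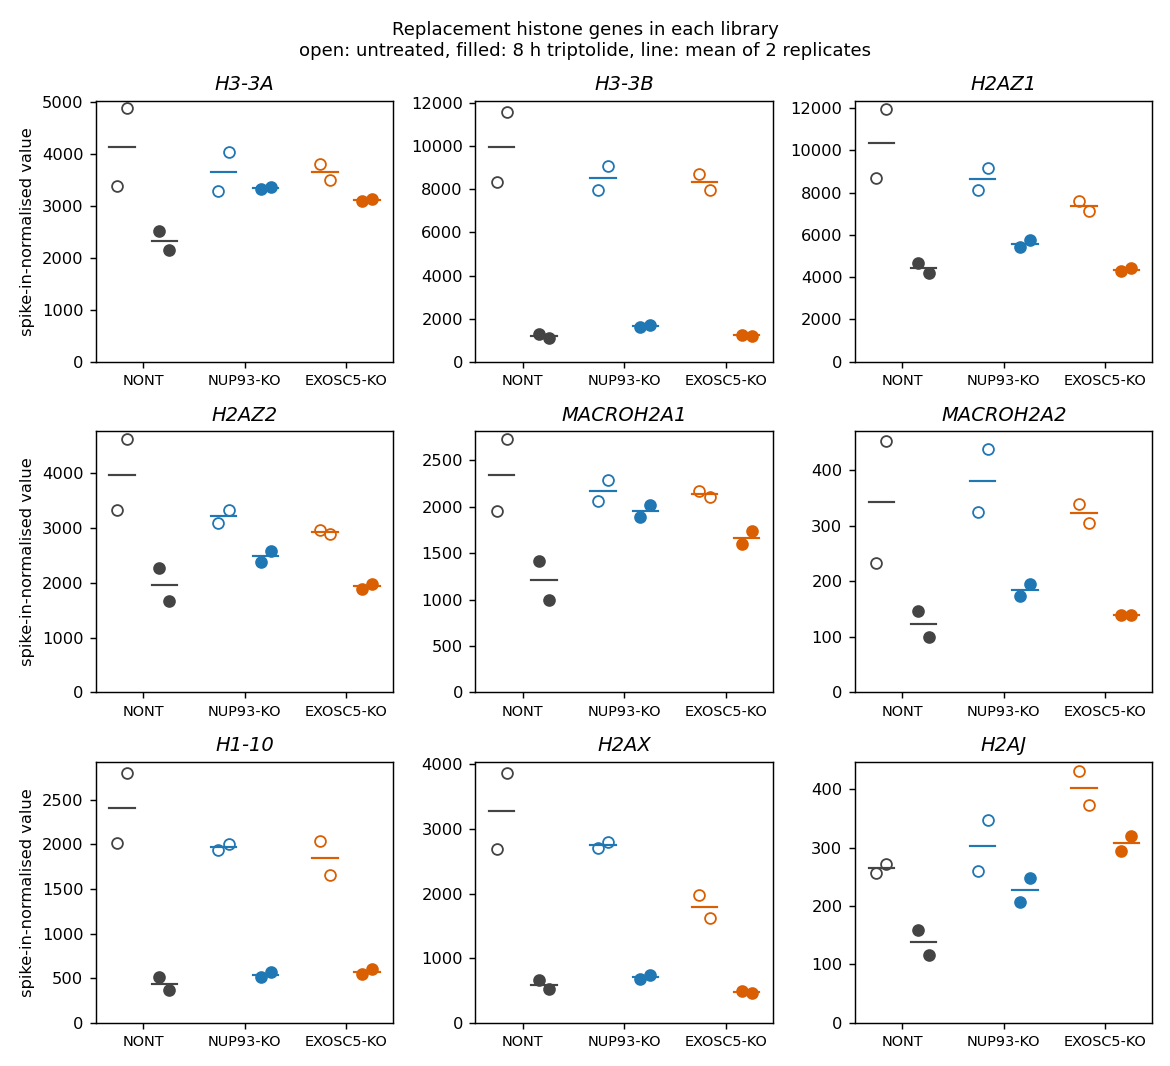
Spike-in-normalised value (linear axis from 0, own scale per gene) of each of the 9 genes in each of the 12 libraries, with untreated libraries as open and triptolide libraries as filled points and the mean of 2 replicates as a line. H3-3B, H1-10 and H2AX lie far lower with triptolide in all 3 genotypes, whereas H3-3A and MACROH2A1 stay close to their untreated values in NUP93-KO.

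The first comparison asked how much of each mRNA was left after 8 h without new initiation. In NONT all 9 members fell, with a median log2 difference of −1.20 against −1.62 over all genes tested, and 90.0% of all genes tested were also called lower. The members separated widely: H3-3B, H1-10 and H2AX fell more than the median gene and the other 6 fell less.

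H3-3B, a source of H3.3, was at 8319 and 11582 in untreated NONT and at 1288 and 1092 with triptolide. The treated libraries were all far below the untreated ones, and the means differed 8.36-fold. The log2 difference was −3.05 ± 0.19 (SE, adjusted p = 7.35e-10, limma), and 19.3% of genes tested fell as much or more. H3-3A, the other source of the same protein, was at 3377 and 4890 untreated and at 2512 and 2145 with triptolide. It kept 56.3% of its mean and fell by 0.81 ± 0.20 on the log2 scale (adjusted p = 0.00118), with 89.9% of genes tested at or below it.

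H2AX, the variant phosphorylated at DNA breaks, was at 2696 and 3866 untreated and at 663 and 519 with triptolide. Its log2 difference was −2.46 ± 0.21 (adjusted p = 1.83e-08). The linker histone gene H1-10 went from 2018 and 2804 to 511 and 363, with a log2 difference of −2.46 ± 0.21 (adjusted p = 2.82e-08). These 2 genes lost about the same share, with 18.0% and 18.1% of the mean left.

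The H2A.Z genes fell less. H2AZ1 was at 8711 and 11954 untreated and at 4691 and 4200 with triptolide, a log2 difference of −1.20 ± 0.19 (adjusted p = 2.10e-05). H2AZ2 was at 3324 and 4622 untreated and at 2265 and 1668 treated, a log2 difference of −1.01 ± 0.20 (adjusted p = 0.000186). Of genes tested, 68.4% were at or below the value of H2AZ1 and 78.8% at or below that of H2AZ2.

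Of the macroH2A genes, MACROH2A1 was at 1955 and 2728 untreated and at 1414 and 998 treated, a log2 difference of −0.96 ± 0.21 (adjusted p = 0.000404). MACROH2A2 was the least expressed per kilobase and the least even between replicates, at 232 and 452 untreated and at 147 and 99.0 treated, a log2 difference of −1.42 ± 0.31 (adjusted p = 0.000437). H2AJ went from 257 and 272 to 159 and 116, a log2 difference of −0.95 ± 0.25 (adjusted p = 0.00192). The groups did not overlap for any of the 9 genes, the treated libraries being the lower, as in 94.8% of genes tested.

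**Figure D2:**
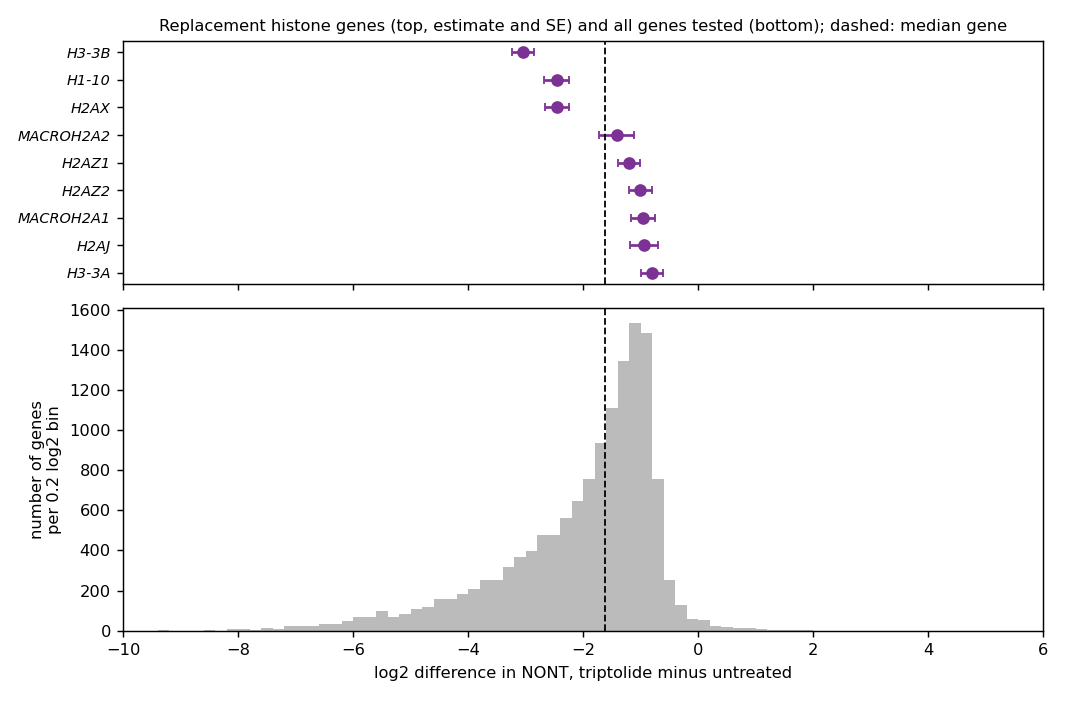
Top, log2 difference in NONT (triptolide minus untreated, estimate and SE) of each of the 9 genes. Bottom, number of genes per bin among the 13811 tested on the same axis, with the median gene at −1.62 dashed. H3-3B, H1-10 and H2AX lie left of the median and the other 6 genes right of it.

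In NUP93-KO and EXOSC5-KO the same question was put to cells in which a nuclear pore protein or an exosome subunit had been targeted. The same 3 genes fell most. All 9 members had a log2 difference below 0 in NUP93-KO and in EXOSC5-KO, as did 92.3% and 96.6% of genes tested. In NUP93-KO 5 of 9 members were called lower (H3-3B, H1-10, H2AX, H2AZ1 and MACROH2A2), against 55.1% of all genes tested. In EXOSC5-KO 6 of 9 were called lower (these and H2AZ2), against 64.3%. The members had a median of −0.63 and −0.75 in these genotypes, against −0.92 and −1.08 over all genes.

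H3-3B was at 7958 and 9101 in untreated NUP93-KO and at 1596 and 1692 treated, a log2 difference of −2.37 ± 0.19 (adjusted p = 3.71e-08). In EXOSC5-KO it was at 8725 and 7965 untreated and at 1234 and 1202 treated, a log2 difference of −2.77 ± 0.19 (adjusted p = 6.51e-09). Its treated libraries lay far below the untreated ones in both knockouts. H3-3A, in contrast, was at 3298 and 4032 untreated and at 3318 and 3371 treated in NUP93-KO, where the groups overlapped (log2 difference −0.12 ± 0.20, adjusted p = 0.619). In EXOSC5-KO it was at 3815 and 3503 untreated and at 3098 and 3127 treated, lower with no overlap but short of the threshold (−0.23 ± 0.20, adjusted p = 0.300).

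H2AX was at 2705 and 2795 untreated and at 674 and 734 treated in NUP93-KO, and at 1976 and 1620 untreated and at 490 and 457 treated in EXOSC5-KO. H1-10 was at 1941 and 2005 untreated and at 513 and 566 treated in NUP93-KO, and at 2034 and 1663 untreated and at 550 and 598 treated in EXOSC5-KO. Log2 differences were −1.97 ± 0.21 and −1.92 ± 0.21 for H2AX and −1.87 ± 0.21 and −1.68 ± 0.21 for H1-10, in NUP93-KO and EXOSC5-KO in this order, and all 4 passed the threshold (adjusted p at most 4.34e-06).

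H2AZ1 was at 8128 and 9160 untreated and at 5410 and 5755 treated in NUP93-KO, a log2 difference of −0.63 ± 0.19 (adjusted p = 0.00922). In EXOSC5-KO it was at 7581 and 7126 untreated and at 4271 and 4443 treated, a log2 difference of −0.75 ± 0.19 (adjusted p = 0.00229). The NUP93-KO call of H2AZ1 and that of MACROH2A2 (log2 difference −1.03 ± 0.31, adjusted p = 0.00889) were lost without replicate 2 of untreated NUP93-KO (adjusted p = 0.0963 and 0.100) and without replicate 1 of treated NUP93-KO (adjusted p = 0.0773 and 0.0534), which left 3 members called, against 42.4% and 44.5% of all genes. H2AZ2 passed in EXOSC5-KO (−0.60 ± 0.20, adjusted p = 0.0152), a call that was lost without any single EXOSC5-KO library (adjusted p = 0.0568 to 0.0879), and did not pass in NUP93-KO (−0.37 ± 0.20, adjusted p = 0.124).

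MACROH2A1 was at 2063 and 2287 untreated and at 1889 and 2024 treated in NUP93-KO (log2 difference −0.15 ± 0.21, adjusted p = 0.557), and at 2165 and 2104 untreated and at 1599 and 1739 treated in EXOSC5-KO (−0.36 ± 0.21, adjusted p = 0.134). H2AJ gave −0.40 ± 0.25 (adjusted p = 0.182) and −0.38 ± 0.25 (adjusted p = 0.175). Treated libraries lay wholly below untreated ones for 8 of 9 members in NUP93-KO, H3-3A being the exception, and for 9 of 9 members in EXOSC5-KO, against 79.1% and 88.0% of genes tested.

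**Figure D3:**
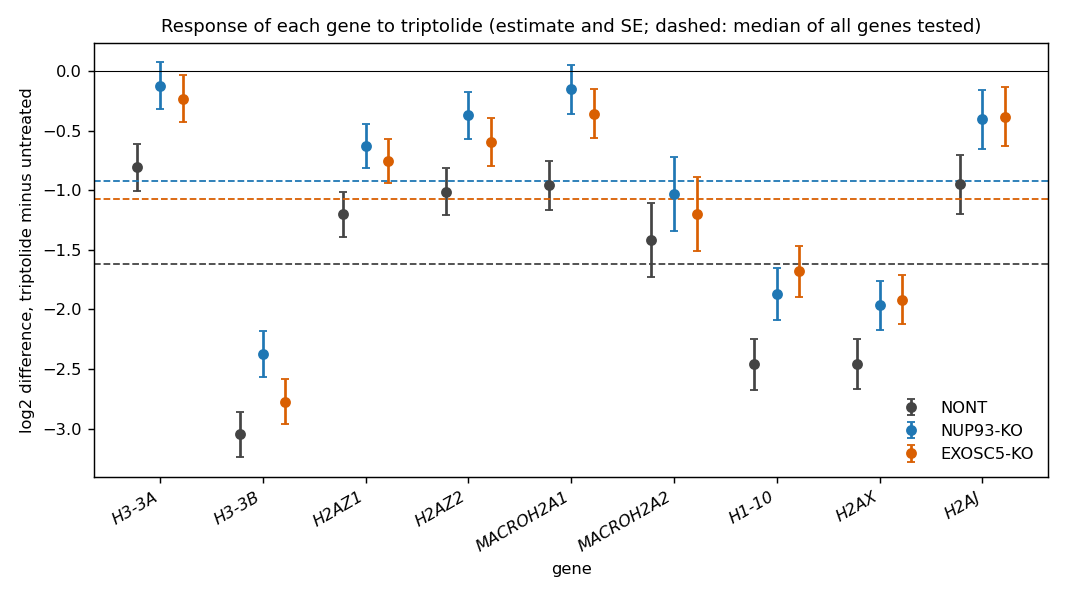
Log2 difference of triptolide minus untreated for each gene in NONT (grey), NUP93-KO (blue) and EXOSC5-KO (orange), as estimate and SE, with the median of all genes tested in each genotype dashed at −1.62, −0.92 and −1.08. H3-3B, H1-10 and H2AX lie below the dashed line of their genotype in all 3 genotypes, and H3-3A, MACROH2A1, H2AZ1, H2AZ2 and H2AJ above it.

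Whether the knockouts responded unlike NONT was tested directly as an interaction. All 9 members were above 0, by 0.39 to 0.81 in NUP93-KO and by 0.22 to 0.78 in EXOSC5-KO on the log2 scale, and so were 92.04% and 89.8% of genes tested. No member passed the threshold, against 0.775% and 0.333% of all genes, and 5 members in NUP93-KO and 1 in EXOSC5-KO had an unadjusted p under 0.05 (limma), as did 41.6% and 23.5% of all genes. Of the 2 untreated NONT libraries, replicate 2 stood apart. Its 9 members summed to 43170, against 30890 in replicate 1 and 27545 to 33502 in the untreated knockouts. Leaving out replicate 1 kept this high library as the only untreated NONT control. The median difference over all genes then rose from 0.74 to 1.00 (NUP93-KO) and from 0.57 to 0.84 (EXOSC5-KO). Leaving out replicate 2 lowered that median to 0.485 and 0.32. Over all single omissions the difference of H3-3A ran from 0.42 to 0.95 and from 0.31 to 0.84, in the same order. When libraries were set to a common median of ratios, which removes shifts shared by all genes, the differences were −0.36 to 0.06 in NUP93-KO and −0.35 to 0.21 in EXOSC5-KO, and none passed, against 0.0145% and 0.0796% of all genes.

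The same scale shows the members relative to other mRNAs. In all 3 genotypes H3-3B, H1-10 and H2AX were called lower and H3-3A, H2AZ1, H2AZ2, MACROH2A1 and H2AJ higher, while MACROH2A2 did not pass. Background shares were 30.3%, 29.7% and 28.7% lower and 27.2%, 26.7% and 26.2% higher in NONT, NUP93-KO and EXOSC5-KO. Relative log2 differences of H3-3A were 0.84, 0.78 and 0.85, those of MACROH2A1 0.69, 0.75 and 0.72, and those of H3-3B −1.40, −1.47 and −1.69, in the same order of genotypes. Setting every library to the same total gave lower values for H3-3B, H1-10 and H2AX and higher ones for H3-3A, H2AZ2 and MACROH2A1 past the threshold in each genotype, against 38.2%, 39.3% and 36.8% of all genes lower and 15.2%, 13.9% and 14.7% higher, with H2AZ1 also higher in NONT and MACROH2A2 also lower in NUP93-KO. Set to the same sum of the 13 mitochondrial mRNAs, 9 members were called lower in NONT and NUP93-KO and 7 in EXOSC5-KO, against 81.2%, 76.5% and 75.1% of all genes.

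The paralog pairs allowed a comparison that does not depend on the spike-in, since both genes were read in the same library. The log2 ratio of H3-3A over H3-3B was −1.30 and −1.24 in untreated NONT and 0.96 and 0.97 with triptolide. It was −1.27 and −1.17 against 1.06 and 0.99 in NUP93-KO, and −1.19 and −1.18 against 1.33 and 1.38 in EXOSC5-KO. All 6 treated libraries were above 0 and all 6 untreated ones below it, a mean change of 2.34 (NONT 2.24, NUP93-KO 2.25, EXOSC5-KO 2.54). Per kilobase of the reference transcripts H3-3B made up 47.2% to 49.4% of the H3.3 values in untreated libraries and 13.2% to 16.9% in treated ones. Without division by length its share was 69.3% to 71.1% untreated and 27.8% to 33.9% treated, so the level depends on the length used. An exact two-sided permutation of treatment within genotype gave p = 0.00926, the smallest that 2 libraries per group in 3 genotypes allow, and 0.00926 after Benjamini-Hochberg adjustment over the 3 pairs compared.

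For H2AZ1 over H2AZ2 the log2 ratio was 1.39 and 1.37 in untreated NONT and 1.05 and 1.33 treated, 1.39 and 1.46 against 1.18 and 1.15 in NUP93-KO, and 1.35 and 1.30 against 1.17 and 1.16 in EXOSC5-KO. The treated libraries were lower in each genotype, by a mean of 0.20 on the log2 scale, a small shift beside that of the H3.3 pair. For MACROH2A1 over MACROH2A2 it was 3.07 and 2.59 against 3.26 and 3.32 in NONT, 2.66 and 2.38 against 3.43 and 3.37 in NUP93-KO, and 2.67 and 2.78 against 3.51 and 3.63 in EXOSC5-KO, a mean rise of 0.73. The exact permutation p was 0.00926 for both, again the smallest possible.

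**Figure D4:**
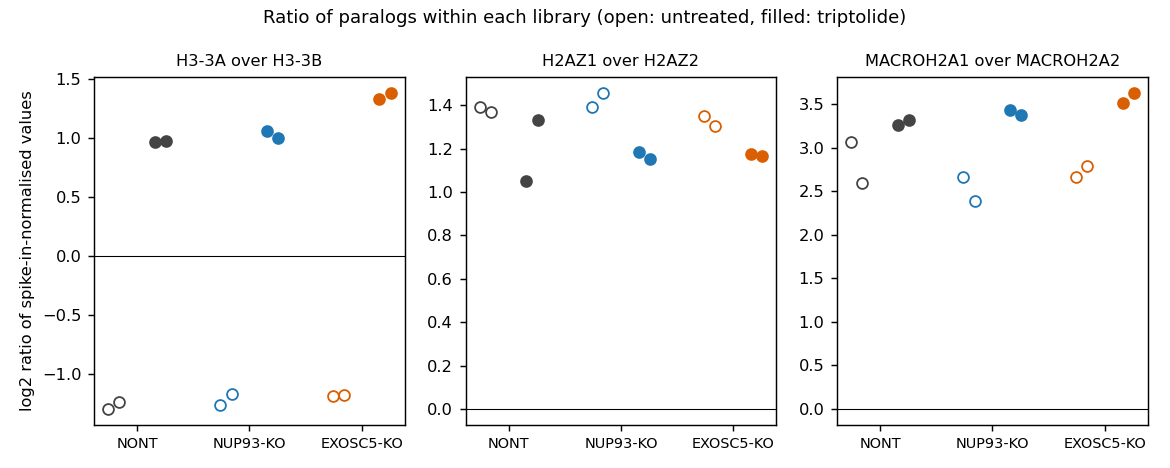
Log2 ratio of the values of the paralogs in each of the 12 libraries, untreated open and triptolide filled, with a line at 0 where both genes have the same value. The H3-3A over H3-3B ratio runs from −1.30 to −1.17 in untreated and from 0.96 to 1.38 in treated libraries, and the other pairs shift by far less.

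The last comparison asked what each knockout did without drug. No member passed the threshold in NUP93-KO or in EXOSC5-KO, against 0.0217% and 0.521% of all genes tested. In NUP93-KO log2 differences from NONT ran from −0.29 to 0.22 and no member had an unadjusted p under 0.05 (limma). In EXOSC5-KO 4 members did, as did 4.2% and 8.49% of all genes in the NUP93-KO and EXOSC5-KO comparisons. H2AX was at 1976 and 1620 against 2696 and 3866 in NONT, lower in both libraries, with a log2 difference of −0.85 ± 0.21 (adjusted p = 0.107), and 2.51% of genes tested were at or below it. H2AZ1 and H2AZ2 gave −0.47 ± 0.19 and −0.42 ± 0.20 (adjusted p = 0.465 and 0.588). H2AJ went the other way, at 431 and 374 against 257 and 272, with a log2 difference of 0.60 ± 0.25 (adjusted p = 0.493).

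On the median of ratios scale 6 members were called lower in untreated EXOSC5-KO, against 3.64% of all genes: H2AX (−0.95, adjusted p = 0.000165), H2AZ1 (−0.57), H2AZ2 (−0.52), H1-10 (−0.47), H3-3B (−0.33) and H3-3A (−0.25). None was higher, with H2AJ at 0.50 (adjusted p = 0.127). Setting libraries to the same total or the same sum of mitochondrial mRNAs called 5 lower each time, against 2.09% and 5.21% of all genes. On the spike-in scale H2AX and H2AZ1 passed without replicate 1 of untreated NONT (adjusted p = 0.0280 and 0.0452, with 0.724% of all genes called), and no member passed when any other single library was left out. Over these omissions the log2 difference ran from −1.11 to −0.59 for H2AX and from −0.70 to −0.25 for H2AZ1. Of 13 S-phase genes all were below the median gene in this comparison, with a list median of −0.35 against 0.07 over all genes, and 10 of 13 were called lower on the median of ratios scale. Their part in the H2AX and H2A.Z values was not tested.

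Replication-dependent histone genes mostly stood on the other side. Of 67, 20 were abundant enough to test, which a poly(A) selection limits. Their median in untreated EXOSC5-KO was 0.84, with 16 of 20 above the median gene. Some were low, such as H4C5 at 4.76 and 10.5 and H4C16 at 3.94 and 4.19 in untreated NONT, only a few reads. The most abundant, H2BC12, did not rise, at 1651 and 1542 against 1571 and 2088 in NONT. On the median of ratios scale 3 were called higher and 1 lower, against 2.06% and 3.64% of all genes. H1-2, a linker histone of this class, passed the threshold at 1319 and 1281 against 563 and 778 in NONT (log2 difference 0.97 ± 0.20, adjusted p = 0.0372). In the triptolide response of NONT this class had a median of −1.25 and 13 of 20 were called lower, against 9 of 9 members (median −1.20) and 90.0% of all genes. Near-identical copies within this class make the values of single genes uncertain.

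**Figure D5:**
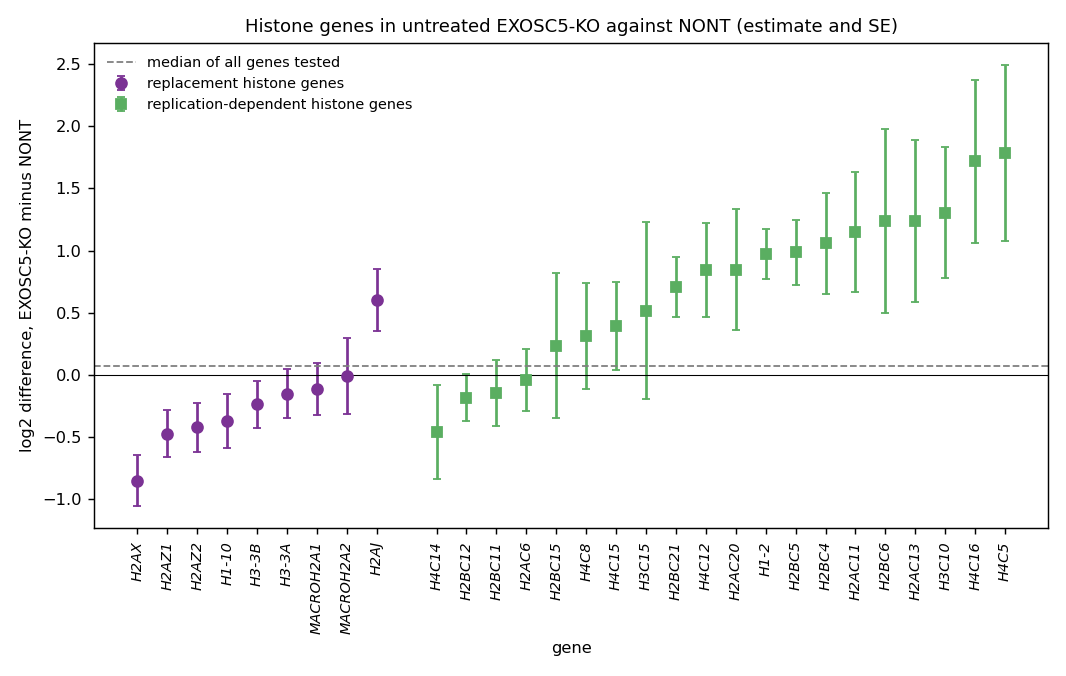
Log2 difference of untreated EXOSC5-KO minus NONT (estimate and SE) for the 9 replacement histone genes and the 20 replication-dependent histone genes tested, each set sorted by value, with the median of all genes tested at 0.07 dashed. Of the 9 replacement genes 8 lie below the dashed line, and of the 20 replication-dependent genes 16 lie above it.

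Genes that handle these histones were read from fixed lists in the NONT response. All 7 H3.3 deposition genes fell, with a median of −2.87: UBN2 (−4.02 ± 0.61) and UBN1 (−3.99 ± 0.24), subunits of the HIRA complex, fell most, and CABIN1 (−1.65 ± 0.21) and the remodeller ATRX (−0.70 ± 0.21) fell least. All 8 H2A.Z exchange genes fell, with a median of −1.82, from SRCAP (−4.36 ± 0.46), the ATPase that inserts H2A.Z, and YEATS4 (−2.74 ± 0.35) to ANP32E (−0.83 ± 0.23), which removes H2A.Z, and ZNHIT1 (−0.80 ± 0.19). H3-3B, at −3.05, was thus near the median of the H3.3 deposition genes, while H3-3A and both H2A.Z genes fell less than the medians of the lists that serve them.

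The FACT subunits SUPT16H (−1.37 ± 0.22) and SSRP1 (−1.03 ± 0.19) fell and the macroH2A chaperone APLF was at −0.66 ± 0.47 (adjusted p = 0.190). All 6 genes of replication-coupled and CENP-A deposition fell, with a median of −1.82, from HJURP (−5.37 ± 0.34), the CENP-A chaperone, and CHAF1A (−3.51 ± 0.31) to ASF1B (−1.48 ± 0.28) and NASP (−1.29 ± 0.23). All 5 H2AX kinases and readers fell, with a median of −1.76. BAZ1B (−2.68 ± 0.22), which phosphorylates a tyrosine of H2AX, and ATR (−1.92 ± 0.31) fell most, and the break kinases ATM (−1.47 ± 0.33) and PRKDC (−1.04 ± 0.23) fell least. Against the 90.0% of all genes called lower, these counts do not set the lists apart.

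All 7 genes on a partial list for making and processing replication-dependent histone mRNA, here called histone mRNA processing genes, fell in NONT. Their median was −3.74, and all were below the median gene. ZNF473, a component of the U7-dependent processing machinery, fell from 276 and 261 to 1.503 and 0.727, values close to 1 read, so that its log2 difference of −7.02 ± 0.41 depends on the 1 added to each value. LSM11 (−4.66 ± 0.47), LSM10 (−2.83 ± 0.24) and ERI1 (−2.56 ± 0.40) were the others at the extremes. ZNF473 was also the only listed gene called in the difference in response between EXOSC5-KO and NONT, where 0.333% of all genes were called. That difference was 3.19 ± 0.58 (adjusted p = 0.0372, limma), with 21.4 and 17.7 left in treated EXOSC5-KO. It rests on the same treated NONT values close to 1 read. On the median of ratios scale no gene of this list was called in that comparison. In NUP93-KO and EXOSC5-KO the triptolide response was called lower in 6 and 6 of 7 H3.3 deposition genes, 4 and 6 of 8 H2A.Z exchange genes, 1 and 3 of 3 macroH2A and H2A chaperones, 5 and 6 of 6 replication-coupled and CENP-A deposition genes, 3 and 3 of 5 H2AX kinases and readers, and 7 and 6 of 7 histone mRNA processing genes, against 55.1% and 64.3% of all genes. None was called higher, and without drug none of these genes passed in either knockout. The centromeric H3 variant gene CENPA fell by 3.15 ± 0.26 on the log2 scale.

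Patterns over the 12 libraries were compared after the median of all tested genes was subtracted from each library. Most alike among the members were H3-3A and MACROH2A1 (Pearson r = 0.989) and H2AZ1 and H2AZ2 (0.986), whereas H3-3A and H3-3B ran opposite (−0.845), as did H3-3B and H2AJ (−0.965). Among 10380 genes, those closest to H3-3A were PRPF19 (0.998) and ACO1 (0.998), to H3-3B CCNA2 (0.985) and CKS2 (0.985), to H2AZ1 ANP32B (0.994) and to H2AZ2 YARS1 (0.996) and CAV1 (0.994). For MACROH2A1 they were TIMM10 (0.998) and GNAI2 (0.998), for MACROH2A2 GABPB2 (0.943) and AIFM2 (0.939), for H1-10 RTN4R (0.924) and CTBP2 (0.924), for H2AX AURKB (0.980) and KIF2C (0.958) and for H2AJ an unnamed gene, ENSG00000235692 (0.981), and MXD4 (0.979). These values are descriptions over libraries that share treatment, genotype and depth.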

How the data were processed

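Poly(A) RNA of 12 U2OS libraries, 2 in each of 6 groups taken from the sample labels, had been sequenced. The authors pseudoaligned reads strand-aware with kallisto 0.46.1 to GRCh38 transcripts plus 92 ERCC sequences, summed estimates per gene with tximport, divided them by DESeq2 size factors from the ERCC rows and kept protein-coding genes. The deposited values are therefore a spike-in-normalised signal, and an error in cell counting or spike-in volume moves a whole library. Only 11.9% to 23.8% of low values were whole multiples of the worth of 1 read (within 0.01 of it), so no count model was used.

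Genes with an untreated mean of at least 10 (13811) were analysed as log2(value + 1), which understates changes of low genes, with limma 3.58.1 in R 4.3.3 (6 group means, empirical Bayes with trend, two-sided, Benjamini-Hochberg over all genes, threshold 0.05). SEs come from the pooled fit. Paralog ratios were tested by exact permutation. The fit was tested on simulated data. Its noise was drawn separately for each gene and library, so shifts of whole libraries were not covered. Alternatives were a pseudocount of 10, an untreated mean of at least 50, no filter, no trend, 3 other scalings, a replicate block and leaving out each library.

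Symbols and sequences came from GENCODE release 44 (19584 IDs matched, 2795 did not), one reference transcript per gene, with Python 3.11.15, pandas 2.3.3, SciPy 1.17.1 and matplotlib 3.10.9. Named were all 9 members, NUP93 and EXOSC5, the 2 lowest and 2 highest NONT responses of each deposition, processing or reader list, listed genes past the threshold in a knockout contrast, and the 2 genes most alike to each member among those with an untreated mean of at least 100. H2BC12 was added after its values were seen. Some genes that this rule names are not reported here. The members and lists were chosen with earlier results of these data known.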

Additional observations from a re-analysis of the deposited data

How the results depend on the processing

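A pseudocount of 10, an untreated mean of at least 50, no filter, limma without trend and a replicate block left every count of members called and all 63 log2 differences of members on their side of the threshold and in their direction. Gene-by-gene deviations of same-numbered libraries correlated at −0.05 to 0.04 over 15 pairs of groups. Each library's median had been subtracted first, so a shift of whole libraries shared by replicate number could not show here. The block, which gave 5 members called in NUP93-KO and 0 in untreated EXOSC5-KO, changed no call. Members called in the NUP93-KO response numbered 8 by median of ratios and 9 by mitochondrial sum, against 5 on the spike-in scale. The 8 were 3 lower and 5 higher, against 29.7% and 26.7% of all genes. The 9 and the 5 were all lower, against 76.5% and 55.1% of all genes. In untreated EXOSC5-KO members called numbered 6 by median of ratios and 5 by same total and by mitochondrial sum, against 0. These were all lower, against 3.64%, 2.09% and 5.21% of all genes in this order of scales. On the spike-in scale 0.521% of all genes were called there.

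Log2 differences that turned positive, by construction of scales that remove the shared fall, were as follows. By median of ratios in NONT they were H3-3A 0.84, H2AZ1 0.45, H2AZ2 0.64, MACROH2A1 0.69, MACROH2A2 0.23 and H2AJ 0.69, in NUP93-KO H3-3A 0.78, H2AZ1 0.27, H2AZ2 0.53, MACROH2A1 0.75 and H2AJ 0.50, and in EXOSC5-KO H3-3A 0.85, H2AZ1 0.33, H2AZ2 0.48, MACROH2A1 0.72 and H2AJ 0.69. By same total in NONT they were H3-3A 0.53, H2AZ1 0.14, H2AZ2 0.33, MACROH2A1 0.38 and H2AJ 0.38, in NUP93-KO H3-3A 0.44, H2AZ2 0.20, MACROH2A1 0.42 and H2AJ 0.16, and in EXOSC5-KO H3-3A 0.56, H2AZ1 0.039, H2AZ2 0.20, MACROH2A1 0.44 and H2AJ 0.41. MACROH2A1 in untreated NUP93-KO turned to 0.025 by same total.

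Differences in response that turned negative, none past the threshold, were for NUP93-KO by same total H3-3A −0.088, H3-3B −0.095, H2AZ1 −0.20, H2AZ2 −0.13, MACROH2A2 −0.38, H1-10 −0.18, H2AX −0.28 and H2AJ −0.22, by median of ratios H3-3A −0.066, H3-3B −0.073, H2AZ1 −0.18, H2AZ2 −0.11, MACROH2A2 −0.36, H1-10 −0.16, H2AX −0.26 and H2AJ −0.20, and by mitochondrial sum H2AZ1 −0.090, H2AZ2 −0.023, MACROH2A2 −0.27, H1-10 −0.070, H2AX −0.17 and H2AJ −0.11. For EXOSC5-KO they were by same total H3-3B −0.27, H2AZ1 −0.10, H2AZ2 −0.13, MACROH2A2 −0.32 and H2AX −0.0047, by median of ratios H3-3B −0.30, H2AZ1 −0.13, H2AZ2 −0.16, MACROH2A2 −0.35, H2AX −0.031 and H2AJ −0.0014, and by mitochondrial sum H3-3B −0.18, H2AZ1 −0.010, H2AZ2 −0.040 and MACROH2A2 −0.23.

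Leaving out 1 library, which where it leaves 1 sample in a group assumes that sample varies like the others, gave 9 members called in NONT each time, 3 to 6 in NUP93-KO, 5 to 6 in EXOSC5-KO, 0 in untreated NUP93-KO, 0 to 2 in untreated EXOSC5-KO and 0 to 7 in each difference in response, with 7 and 7 without replicate 1 of untreated NONT (51.2% and 38.5% of all genes called) and 0 and 0 without replicate 2 (0% of all genes). H3-3A in NUP93-KO ran from −0.27 to 0.020. In untreated NUP93-KO ranges crossed 0 for H3-3A (−0.42 to 0.11), H3-3B (−0.44 to 0.033), MACROH2A1 (−0.33 to 0.15), MACROH2A2 (−0.26 to 0.70), H2AX (−0.49 to 0.029) and H2AJ (−0.026 to 0.39), and in untreated EXOSC5-KO for H3-3A (−0.42 to 0.11), H3-3B (−0.47 to 0.0029), MACROH2A1 (−0.35 to 0.13) and MACROH2A2 (−0.49 to 0.47). The difference in response of MACROH2A2 ran from −0.093 to 0.87 in NUP93-KO and from −0.26 to 0.70 in EXOSC5-KO. Paralog changes stayed at 2.33 to 2.36 for H3.3, −0.25 to −0.15 for H2A.Z and 0.65 to 0.81 for macroH2A. With 2 libraries per group and SEs of 0.19 to 0.31, the smallest log2 difference of a member that was called was −0.60, that of H2AZ2 in EXOSC5-KO.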
